A study of Homo sapiens with 3 samples.

Results

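The genes described here make cholesterol and fatty acids from acetyl-CoA. A list of 32 genes was used, of which 18 encode enzymes of sterol synthesis, 9 encode enzymes of fatty acid and triglyceride synthesis, and 5 encode regulators of the pathway or a sterol carrier. Of the 32, 29 had a probe set annotated with that gene alone, out of 19775 genes that had one, and each gene was represented by its probe set with the highest mean log2 signal over the arrays. The 28 genes above the floor (log2 signal 5.93, the pooled median of the probe sets) on at least 1 array are called measured here, among 12664 measured genes in all. MVD, the mevalonate pathway decarboxylase, had log2 signals of 5.35 on the array labelled ORF, 5.50 on the one labelled shRNA and 5.21 on that labelled control, all below the floor. FDFT1 (squalene synthase) was not analysed here, and the probe sets used for CYP51A1 and FADS1 each carry a second gene symbol, so these are described apart.

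Sterol synthesis condenses acetyl-CoA to mevalonate, builds isoprenoid units into squalene, and closes and trims the ring to give cholesterol. Fatty acid synthesis carboxylates the same acetyl-CoA to malonyl-CoA and extends it into chains that are then elongated, desaturated and stored as triglyceride. Both branches are switched on by the SREBP transcription factors, which are held in the endoplasmic reticulum by SCAP and the INSIG proteins while sterols are plentiful and are cut and sent to the nucleus when sterols run low. The liver is a main site of both branches.

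Total RNA came from stably transfected cells that the labels call HepG2, a line from a human liver cancer, and also describe as HCC cells, kept in DMEM with serum from fetal cattle. The vectors carried the open reading frame (ORF) of Hsp27, a hairpin (shRNA) against it, or neither (control), and each transfection was measured on 1 array. HSPB1 is the gene of Hsp27, a small heat shock protein. Whether each line was 1 clone or a pool is not given in the sources used here. A single array for each leaves no replicate error and no test, so every difference below describes these arrays, not the conditions.

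HSPB1 itself had log2 signals of 13.11 on the array labelled ORF and 13.03 on the one labelled shRNA, against 13.25 on that labelled control. The highest reading was thus on control, against the label of the ORF vector, and directions below rest on the labels alone. Of 9 hepatocyte markers on the array, TF alone was above the floor on average, the others, among them ALB (at most 4.88), AFP, APOA1 and SERPINA1, were below it, and the summed linear signal of the 9 was 306.5, 306.9 and 359.8 on the ORF, shRNA and control arrays. Of 8 fibroblast and stellate cell markers, 5 were above the floor on average (COL1A1, COL3A1, ACTA2, DCN and LUM). The others, COL1A2, PDGFRB and THY1, were below it. ACTA2 was near it, at 6.06, 6.26 and 6.30, and LUM was the brightest, at 13.03, 13.35 and 13.30. The summed linear signals of the 8 were 10483, 12995 and 12545, mostly from LUM. Of 4 adipocyte markers, 0 were above the floor, with sums of 20.6, 72.2 and 59.0. Leukocyte markers (1 of 4 above the floor) and endothelial markers (2 of 4) were low, with sums of at most 219.9 and 247.6. The markers thus did not show the liver cell type of the label, and the part of marker differences in the results below was not tested. For ACTB, the linear ratio of 3′ over 5′ signal was 2.40, 2.23 and 2.70 on the ORF, shRNA and control arrays, and for GAPDH it was 0.939, 0.900 and 0.930. Where log2 signals of a gene are given as 3 values below, they are in that order, and where as a pair against another value, that other value is from control.

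The array labelled shRNA read lowest for most of these genes. In such total RNA, fewer cells of a kind and less RNA per cell cannot be told apart. It held the lowest of the 3 signals for 26 of the 28 measured genes, where 36.8% of all measured genes had their lowest signal there. The exceptions were STARD4, lowest on the array labelled ORF, and DGAT2, lowest on the array labelled control. The control array read highest for 22 of the 28, against 36.2% of all measured genes, and none of the 28 had its highest signal on the array labelled shRNA. In the sterol branch 15 of 15 genes were lowest on the array labelled shRNA, in the fatty acid branch 7 of 8, and among the regulators 4 of 5. The plot of signals by gene shows this layering.

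**Figure D1:**
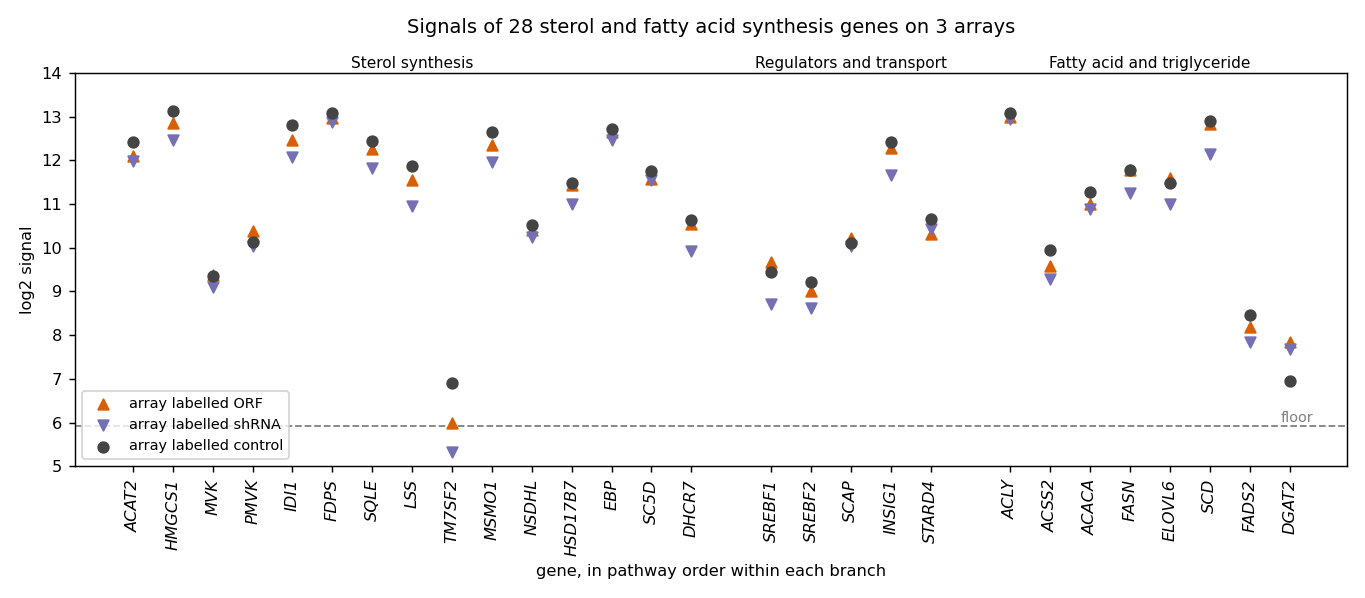
Log2 signal (y axis) of the 28 measured genes (x axis, in pathway order within each branch) on the arrays labelled ORF (upward triangles), shRNA (downward triangles) and control (circles), with the floor as a dashed line. For 26 of 28 genes the downward triangle is the lowest of the 3 points, and heights of different genes cannot be compared because their probes differ.

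Set against the array labelled control, the array labelled shRNA gave a log2 ratio below 0 for 27 of the 28 genes, against 51.1% of all measured genes. The median was −0.51, where that of all measured genes was −0.006. At least 1.5-fold lower were 13 of the 28, against 3.30% of all measured genes, and 1 was at least 1.5-fold higher, against 3.59%. Strongly expressed genes pass this threshold less often, so the 25 members whose mean signal reached the 75th percentile of all probe sets were also set beside genes of like signal: 11 of the 25 were at least 1.5-fold lower, against 1.20% of 7849 such genes, and 0 of the 25 higher, against 1.52%. As a measure of technical spread, probe sets that share a gene and lie near each other in signal were paired, and gave a noise SD of the log2 ratio, which depends on signal and leaves out all variation between cultures. By that measure 19 of 28 were lower by at least 2 noise SD, against 4.73% of all measured genes.

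On the array labelled ORF the same genes lay closer to the array labelled control. Below 0 were 22 of 28, against 49.4% of all measured genes, with a median of −0.13 where all measured genes had 0. Past 1.5-fold were 1 lower (2.82% of all measured genes) and 1 higher (3.04%), and 9 were lower by at least 2 noise SD (6.23%). Of the 25 members of high mean signal, 0 were past 1.5-fold lower (0.726% of such genes) or higher (1.07%). Both comparisons use the single control array, so they are not independent of each other. Directly against the array labelled shRNA, the array labelled ORF read higher for 27 of 28 genes (51.1% of all measured genes), with a median of 0.34, and at least 1.5-fold higher for 5 (2.64%), namely SREBF1, SCD, DHCR7, INSIG1 and LSS. By the median over each gene's probe sets INSIG1 alone was past 1.5-fold. None was at least 1.5-fold lower (2.68%), and 14 were higher by at least 2 noise SD (4.74%). All 5 were of high mean signal, where 0.879% of such genes were that much higher and 0.752% lower.

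**Figure D2:**
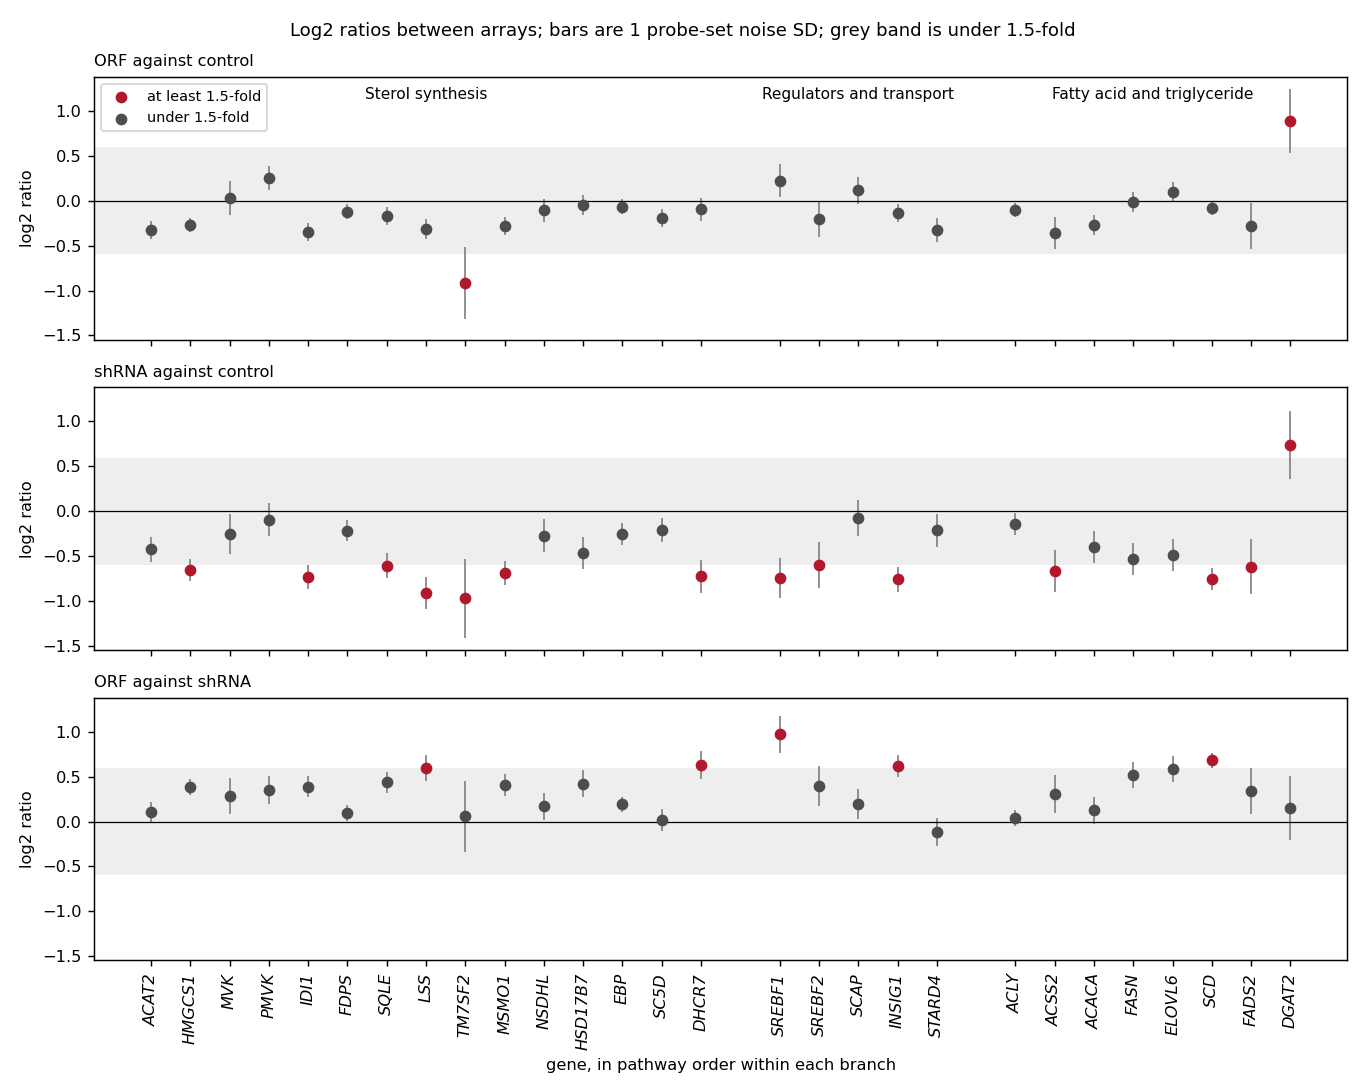
Log2 ratio (y axis) of each measured gene (x axis) in the 3 comparisons (ORF over control at the top, shRNA over control in the middle, ORF over shRNA at the bottom), with bars of 1 probe-set noise SD and red points for genes at least 1.5-fold apart. In the middle panel 13 points lie below the grey band and 1, DGAT2, above it.

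Genes of the same brightness had medians near 0. For the 10 members with mean signals from 12 to 13.1, the median of shRNA against control was −0.63, and 6 were at least 1.5-fold lower. In that range 1029 measured genes had a median of −0.03 and 0.972% were at least 1.5-fold lower. From 11 to 12 the members' median was −0.48 over 6 members, 1 of them at least 1.5-fold lower. There 1598 genes had a median of −0.002, with 0.688% that much lower. From 10 to 11 it was −0.21 over 5 members, 1 of them at least 1.5-fold lower, against 0.008 and 0.788% for 2031 genes. From 8 to 10 it was −0.62 over 5 members, 4 of them at least 1.5-fold lower, against −0.02 and 2.61% for 3684 genes. The 2 members from 5 to 8, TM7SF2 and DGAT2, lay on opposite sides of 0 (median −0.12), 1 of them at least 1.5-fold lower. The 3599 genes there had a median of 0, with 7.89% that much lower. The members' medians thus varied between ranges. The very bright GAPDH control probe set read 14.62 and 14.59 on the arrays labelled ORF and shRNA, against 14.74 on control. Quantile normalization, loess centring and equal medians turned the sign of 0 of the 28 ratios in either comparison against control. In ORF against shRNA, equal medians turned that of SC5D, whose ratio was 0.02.

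Promoters are shown for 4 of the members that by their brightest probe set were at least 1.5-fold lower on the array labelled shRNA. They either hold a sterol-type element or have at least 2 probe sets below control. For SREBF2 and LSS, 1 other probe set each read above control there (0.25 each). The 250 bases before the annotated start are from RefSeq (GRCh38.p14), 5′ to 3′ on the gene's strand, at chr22:41832855-41833104 (plus strand), chr7:155297628-155297877 (plus), chr21:46228775-46229024 (minus) and chr10:100346983-100347232 (plus). Capitals mark the sterol element TCACNCCAC, the palindromic E-box TCACGTGA, which SREBPs can also bind, and the NF-Y box CCAAT, each searched on both strands.
SREBF2 promoter: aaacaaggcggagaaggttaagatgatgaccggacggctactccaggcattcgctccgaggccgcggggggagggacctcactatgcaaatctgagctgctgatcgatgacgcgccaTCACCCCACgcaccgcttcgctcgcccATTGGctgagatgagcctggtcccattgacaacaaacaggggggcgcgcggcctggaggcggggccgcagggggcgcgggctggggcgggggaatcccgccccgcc
INSIG1 promoter: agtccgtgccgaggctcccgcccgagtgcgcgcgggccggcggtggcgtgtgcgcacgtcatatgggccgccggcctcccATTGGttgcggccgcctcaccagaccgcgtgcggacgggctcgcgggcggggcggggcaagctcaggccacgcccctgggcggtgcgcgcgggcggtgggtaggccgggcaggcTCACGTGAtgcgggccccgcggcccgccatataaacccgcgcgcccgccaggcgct
LSS promoter: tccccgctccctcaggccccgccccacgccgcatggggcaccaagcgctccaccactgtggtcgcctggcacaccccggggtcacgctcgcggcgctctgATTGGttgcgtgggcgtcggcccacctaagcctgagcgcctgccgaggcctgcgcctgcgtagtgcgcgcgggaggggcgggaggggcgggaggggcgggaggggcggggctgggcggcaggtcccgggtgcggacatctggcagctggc
SCD promoter: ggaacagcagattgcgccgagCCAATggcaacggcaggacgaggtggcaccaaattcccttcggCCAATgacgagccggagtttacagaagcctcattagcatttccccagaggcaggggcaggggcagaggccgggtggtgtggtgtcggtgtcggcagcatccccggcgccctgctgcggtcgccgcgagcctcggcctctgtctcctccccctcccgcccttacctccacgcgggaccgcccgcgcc
The sterol element of SREBF2 spans bases 133 to 125 before the start and is followed by an NF-Y box, read on the other strand, at bases 106 to 102. In INSIG1 the E-box lies 56 to 49 bases before the start. NF-Y is a factor known to act beside SREBPs at sterol-regulated promoters, and its box was found once in LSS and in INSIG1 and at 2 places in SCD. The promoters of IDI1, SREBF1 and FADS2, also at least 1.5-fold lower on the array labelled shRNA but not shown, held no NF-Y box.

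Of the 28 measured members, 24 matched the promoter table by symbol, and the first listed start of each was used. ACAT2, SQLE, FASN and DGAT2 had no entry. The NF-Y box was present in 17 of the 24 promoters, or 70.8%, against 35.0% of the promoters of 10278 measured genes and 33.0% of all 27305. The GC box GGGCGG, bound by Sp1 and not capitalised above, was in 22 of 24 (91.7%), against 66.1% and 42.3%. The sterol element was in 1 of 24 (0.876% of the promoters of measured genes) and the E-box in 1 of 24 (1.65%). Matches of different motifs overlapped in 0 places. The NF-Y box was in 9 of the 12 promoters of genes at least 1.5-fold lower on the array labelled shRNA and in 8 of the other 12. A match describes these letters and does not show that a factor binds.

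The mevalonate steps differed among themselves. HMGCS1, which makes HMG-CoA from acetoacetyl-CoA, read 12.85 on the array labelled ORF and 12.47 on the array labelled shRNA, against 13.13 on control. Its second probe set gave 10.44, 10.07 and 10.81, the same order. The array labelled shRNA was therefore 1.57-fold lower than control by the first probe set (log2 ratio −0.66, noise SD 0.121), and the second gave −0.73. IDI1, the isomerase that supplies the reactive isoprenoid unit, read 12.47 and 12.08, against 12.82, and was 1.66-fold lower on the array labelled shRNA (−0.73, noise SD 0.138). One of its other 3 probe sets, a dim one reading 6.98, 7.06 and 6.84, had the opposite sign (0.22), and the median over its probe sets was −0.48, under 1.5-fold. The 2 bright probe sets of IDI1 carry the suffix _x_at, which marks probes that can match several transcripts, so its value is uncertain.

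Smaller differences were seen at the other mevalonate enzymes. ACAT2, the thiolase that opens the pathway, read 12.09 and 11.99 on the arrays labelled ORF and shRNA, against 12.41 on control, so that both lay below control by about the same amount (−0.32 and −0.42). MVK (mevalonate kinase) read 9.38 and 9.09, against 9.35, by its brightest probe set, with a ratio of −0.25 for the array labelled shRNA (noise SD 0.226). Its 2 dimmer probe sets above the floor gave −0.76 and −0.63. PMVK, the next kinase, read highest on the array labelled ORF, at 10.39 there, 10.04 on the array labelled shRNA and 10.14 on control. FDPS, which makes farnesyl diphosphate, the branch point to both sterols and protein prenylation, read 12.97, 12.87 and 13.09. Over the 6 measured mevalonate genes the median of shRNA against control was −0.34. At least 1.5-fold lower were 2 of 6, against 3.30% of all measured genes.

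The steps from squalene to lanosterol included the lowest ratio among the members above the floor on all arrays. LSS (lanosterol synthase), which closes the sterol ring, read 11.55 on the array labelled ORF and 10.95 on the array labelled shRNA, against 11.86 on control. It was thus 1.88-fold lower on the array labelled shRNA than on control (−0.91, noise SD 0.178). Of its 2 dim probe sets, 1 gave −0.78 and the other 0.25. The array labelled ORF was 1.51-fold higher than the one labelled shRNA by the brightest probe set (0.60), a ratio of 0.58 and under the threshold with arrays scaled to equal medians. The dim probe sets gave 0.05 and −0.04 for that comparison, so it rests on 1 probe set. SQLE (squalene epoxidase), a controlled oxygen-using step, read 12.27 and 11.83, against 12.44, a ratio of −0.61 for the array labelled shRNA (noise SD 0.138). All 4 of its probe sets were lower on the array labelled shRNA than on control, with ratios from −1.03 to −0.59.

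After lanosterol, 7 measured enzymes remove methyl groups and shift double bonds, and 7 of 7 read below control on the array labelled shRNA. Their median there was −0.47. MSMO1 (the C4-methyl oxidase) read 12.36 on the array labelled ORF and 11.95 on the array labelled shRNA, against 12.64 on control, and was 1.61-fold lower on the array labelled shRNA (−0.69, noise SD 0.138). DHCR7, the reductase of the final steps that is deficient in Smith-Lemli-Opitz syndrome, read 10.55 and 9.91, against 10.64, with a ratio of −0.73 (noise SD 0.186) for the array labelled shRNA and −0.10 for the array labelled ORF. Its second probe set gave −0.62 and −0.25. By the first, the array labelled ORF was 1.55-fold higher than the one labelled shRNA (0.63). The second gave 0.37 and the median over both was 0.50, each under 1.5-fold.

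HSD17B7 (the 3-keto reductase) showed a similar order, at 11.43, 11.01 and 11.48, without reaching 1.5-fold (−0.47, noise SD 0.178). Its only probe set carries the suffix _x_at, so this value is uncertain. The same value is the median of the steps after lanosterol and of the sterol branch. NSDHL, the C4 decarboxylase, read 10.42, 10.25 and 10.52, and EBP, the sterol isomerase, 12.65, 12.46 and 12.71. SC5D (the C5 desaturase) read 11.57, 11.55 and 11.76, so that the arrays labelled ORF and shRNA lay within 1 noise SD (0.119) of each other. The ratios of these 3 for shRNA against control lay between −0.27 and −0.21 by the brightest probe sets. The other probe set of NSDHL gave −0.48, and those of EBP gave −0.26, −0.52 and −0.23. TM7SF2, a C14 sterol reductase, was dim, at 5.98 on the array labelled ORF and 5.32 on the array labelled shRNA, against 6.90 on control. With the shRNA reading below the floor, its ratio of −0.97 (noise SD 0.442) is set by the floor, and it counts as measured through 2 arrays only. TM7SF2 was also the gene at least 1.5-fold lower on the array labelled ORF (−0.91, noise SD 0.405).

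CYP51A1, the lanosterol demethylase, is covered only by probe sets that also carry the symbol LRRD1, so their values may belong to either gene. One read 12.15 on the array labelled ORF and 12.09 on the array labelled shRNA, against 12.15 on control. The other read 11.25 and 10.85, against 11.28. The second gave a ratio of −0.43 for the array labelled shRNA (noise SD 0.178) and the first −0.06 (noise SD 0.138), so the probe sets differed.

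Of the 28 members, SREBF1 had the highest ratio of ORF against shRNA. It encodes SREBP-1, the SREBP chiefly of fatty acid genes. It read 9.68 on the array labelled ORF and 8.71 on the array labelled shRNA, against 9.45 on control. The array labelled shRNA was 1.68-fold lower than control (−0.75, noise SD 0.226), and the array labelled ORF was 1.96-fold higher than the array labelled shRNA (0.97, noise SD 0.204). For ORF against control its probe sets disagreed, with 0.22 by the brighter and −0.50 by the dimmer, while both gave negative values for the array labelled shRNA (−0.75 and −0.60). For ORF against shRNA the dimmer gave 0.10 and the median over both was 0.53, under 1.5-fold, so the high ratio rests on the brighter probe set.

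INSIG1, both a retention factor for SCAP and itself a target of SREBPs, read 12.28 and 11.65 on the arrays labelled ORF and shRNA, against 12.41 on control. It had 3 probe sets, and the others read 11.56, 10.66 and 11.86, and 10.09, 9.25 and 10.28, in the same order. All 3 were lowest on the array labelled shRNA, with ratios to control of −0.76 (noise SD 0.138), −1.20 and −1.02, and those for the array labelled ORF were −0.14, −0.30 and −0.18. By the brightest, INSIG1 was 1.69-fold lower on the array labelled shRNA than on control.

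SREBF2, which encodes SREBP-2, the SREBP chiefly of sterol genes, read 9.02 and 8.62, against 9.22, a ratio of −0.60 (noise SD 0.255) just past the threshold. Another probe set of nearly the same brightness read 8.98, 8.95 and 8.69 and gave 0.25, and the remaining, dimmer one gave −0.78, so the direction for SREBF2 depends on the probe set. SCAP, the escort that carries SREBPs to the Golgi, read 10.23, 10.04 and 10.12, within 1 noise SD of control on both other arrays. STARD4, a sterol transfer protein, read 10.32, 10.43 and 10.65, and was the only regulator lowest on the array labelled ORF. Protein cleavage, the step at which SREBPs are controlled, was not measured.

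Supply of acetyl-CoA and its carboxylation open the fatty acid branch. ACLY (ATP citrate lyase) read 12.99 on the array labelled ORF and 12.95 on the array labelled shRNA, against 13.09 on control, a ratio of −0.15 (noise SD 0.121) for the array labelled shRNA. The other ACLY probe sets gave −0.40 and −0.09 for the array labelled shRNA, and −0.01 and 0.22 for the array labelled ORF. ACSS2, which makes acetyl-CoA from acetate, differed more by its only probe set, at 9.59 and 9.29, against 9.95. It was 1.58-fold lower on the array labelled shRNA (−0.66, noise SD 0.237). ACACA, the carboxylase that makes malonyl-CoA, read 11.00 and 10.88, against 11.28, with both probe sets below control on both arrays.

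Chain building and elongation differed mainly on the array labelled shRNA when read by the brightest probe sets. FASN, the fatty acid synthase, read 11.77 and 11.25, against 11.78. By this probe set the array labelled ORF matched control (−0.01) while the array labelled shRNA was 1.45-fold lower (−0.53, noise SD 0.178). The other FASN probe set, near the floor, gave −0.38 for the array labelled ORF and −0.33 for the array labelled shRNA. ELOVL6, the elongase that takes palmitate to stearate, read 11.58 and 11.00, against 11.49, with −0.49 for the array labelled shRNA. Its 2 dimmer probe sets gave −0.16 and 0.04, so that the lower reading rests on the brightest one. For the array labelled ORF the brightest gave 0.10, and the dimmer ones 0.09 and 0.31.

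Both measured desaturases were at least 1.5-fold lower on the array labelled shRNA. SCD (stearoyl-CoA desaturase), which makes oleate, read 12.82 and 12.14, against 12.90, and was 1.69-fold lower than control on the array labelled shRNA (−0.76, noise SD 0.121). The array labelled ORF lay within 1 noise SD of control (−0.08, noise SD 0.0793). All 4 of its probe sets were below control on the array labelled shRNA, from −0.76 to −0.17. For ORF against shRNA they gave values from 0.22 to 0.68, with a median of 0.45, under 1.5-fold. FADS2, the first desaturase of polyunsaturated fatty acids, read 8.19 and 7.85, against 8.47 (−0.62, noise SD 0.304, for the array labelled shRNA). Its other probe set was below the floor on all 3 arrays, and the median over both was −0.31, under 1.5-fold. FADS1, the next desaturase, has 3 probe sets that also carry the symbol of the microRNA gene MIR1908. They read 12.07, 11.99 and 12.50 on the array labelled ORF and 11.70, 11.54 and 12.16 on the array labelled shRNA, against 11.92, 12.00 and 12.49 on control. All 3 were lowest on the array labelled shRNA, with ratios to control of −0.22, −0.46 and −0.33.

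DGAT2, which adds the last acyl chain of triglyceride, went the other way. Its brighter probe set read 7.83 on the array labelled ORF and 7.68 on the array labelled shRNA, against 6.94 on control, a ratio of 0.89 (noise SD 0.357) and 0.74 (noise SD 0.376). Its other probe set read 6.92 and 7.31, against 7.28, with ratios of −0.35 and 0.04, so the higher reading rests on 1 probe set. Over the 8 fatty acid genes the median of shRNA against control was −0.51. At least 1.5-fold lower were 3 of them, against 3.30% of all measured genes, and 1 was higher, against 3.59%. Over the 15 sterol genes the median was −0.47, with 7 that much lower and 0 higher. The corresponding medians were −0.09 and −0.17 for ORF against control, and 0.32 and 0.35 for ORF against shRNA. By the brightest probe sets the branches thus lay close together in each comparison. For shRNA against control, the median over probe sets gave −0.47 for the sterol and −0.33 for the fatty acid branch. That median counts probe sets below the floor on all arrays as a ratio of 0, which pulls FADS2 and SC5D toward 0. The second brightest probe sets gave −0.68 over 8 sterol genes and −0.23 over 6 fatty acid genes.

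**Figure D3:**
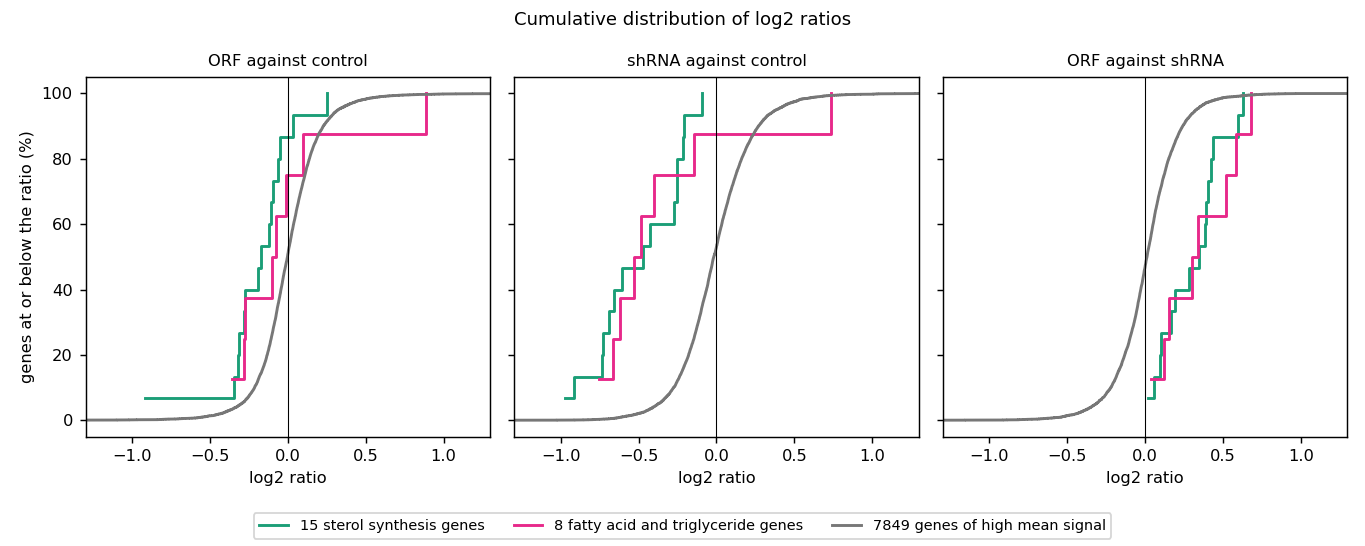
Percentage of genes (y axis) at or below each log2 ratio (x axis) for 15 sterol synthesis genes, 8 fatty acid and triglyceride genes and 7849 measured genes of high mean signal, in each comparison. Both branches lie left of the grey curve for shRNA against control (medians −0.47 and −0.51) and right of it for ORF against shRNA, apart from DGAT2 for shRNA against control. Of the members drawn, TM7SF2, FADS2 and DGAT2 were dimmer than the genes of the grey curve.

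Several members have more than 1 probe set, which read different parts of the same transcripts in the same RNA. Of 17 members with at least 2 probe sets above the floor, 13 had probe sets of 1 sign for shRNA against control, and IDI1, LSS, SREBF2 and ELOVL6 did not. The 31 probe sets that were not the brightest of their gene had a median of −0.52, with 26 below 0 and 15 at least 1.5-fold lower. Over all genes, 11718 such probe sets had a median of 0.006, with 46.0% below 0 and 3.83% at least 1.5-fold lower. For ORF against control the 31 had a median of −0.21, against 0.01 over all genes, and 8 of 17 members had probe sets of 1 sign. For ORF against shRNA the median was 0.27, against 0 over all genes, and 11 of 17 did.

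**Figure D4:**
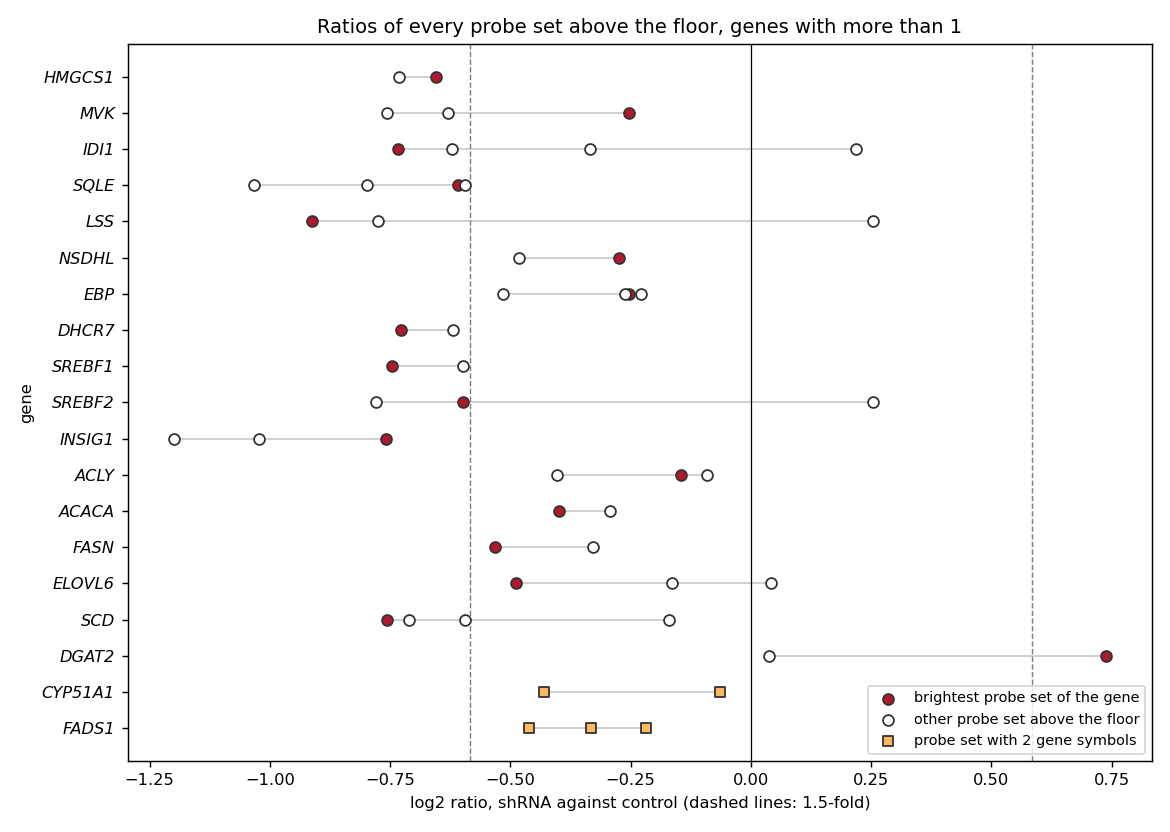
Log2 ratio of shRNA against control (x axis) for every probe set above the floor, by gene (y axis), with the brightest probe set of each gene in red, others in white, and probe sets with 2 gene symbols as squares. Of 17 genes, 4 have probe sets on both sides of 0, and DGAT2 lies to the right of 0.

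For shRNA against control, other genes around the pathway, from lists drawn up beside the members, had medians nearer 0 than that of the 28 members (−0.51). The list median farthest from 0 was −0.26, over 8 genes of the LXR receptors and sterol efflux, with 6 below 0 (51.1% of all measured genes). Of 15 measured genes that process or degrade SREBPs, 1 was at least 1.5-fold higher on the array labelled shRNA than on control (3.59% of all measured genes) and 0 lower (3.30%), with a median of 0.02. That gene was SEC24D, a subunit of the vesicle coat that carries SCAP and SREBPs, at 10.15 on the array labelled ORF and 10.80 on the array labelled shRNA, against 10.12 on control. The isoprenoid side branches draw on the same mevalonate for prenyl groups, ubiquinone and dolichol. Of their 13 measured genes, 0 passed 1.5-fold in any of the 3 comparisons (2.64% to 3.59% of all measured genes in each direction). The median of the 13 for shRNA against control was 0.02. Among 20 genes of sterol uptake, trafficking and esterification the median was −0.13, and 1 was at least 1.5-fold higher on the array labelled shRNA (3.59%), GRAMD1B, a sterol transfer protein that read 9.07 and 8.56, against 7.96. On the array labelled ORF, CAV1 (caveolin 1, 12.07 against 12.79 on control), the endocytic receptor LRP1 (7.20 against 7.93) and the endosomal sterol carrier STARD3 (5.77, below the floor, against 6.82) were at least 1.5-fold lower and GRAMD1B higher, that is 3 of 20 lower (2.82% of all measured genes) and 1 higher (3.04%).

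Of 8 measured genes of the LXR receptors and sterol efflux, 2 were at least 1.5-fold higher on the array labelled ORF than on control (3.04% of all measured genes) and 1 lower (2.82%), and on the array labelled shRNA 1 was higher (3.59%) and 1 lower (3.30%). ABCA1, the exporter that loads cholesterol onto apolipoproteins, read 8.51 on the array labelled ORF and 6.30 on the array labelled shRNA, against 7.01 on control. ABCG1, a partner exporter, read 7.95 and 6.26, against 6.63, with the array labelled shRNA within 1 noise SD of control (−0.37, noise SD 0.416). Relative to control, ABCA1 was thus 2.84-fold higher on the array labelled ORF and 1.63-fold lower on the array labelled shRNA, with noise SDs of 0.357 and 0.376 on the log2 scale. APOE, an apolipoprotein, was the gene at least 1.5-fold lower on the array labelled ORF (6.73 against 7.42), a ratio of −0.70 and under 2 noise SD (noise SD 0.406). RXRA, the receptor partner of LXR, was the one higher on the array labelled shRNA (11.18 against 10.52).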

How the data were processed

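RNA of 3 transfected cultures was made into biotin-labelled target, per the labels' protocols, and hybridised to 1 array each. The authors deposited log2 signals for 54675 probe sets, made with MAS5 per the submitters' processing notes. The version of MAS5 is not given in the sources used here. The log2 scale was read from the values, whose 2% trimmed mean was 500.1 in linear signal on every array. Samples were grouped by their transfection label.

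Probe sets were named through the platform annotation: 41097 carried 1 symbol, 41043 of them matched RefSeq's gene table, and 1801 carried several. Each array was brought to the same trimmed mean. A floor at the pooled median (5.93) was then applied before log2 ratios were taken, so ratios of dim genes are understated. The noise SD came from 5847 pairs of probe sets of 1 gene, adjacent in brightness and less than 1 apart in mean log2 signal, in 20 bins. No p-value was computed. The ratio and noise steps were tested on simulated data. Python 3.11.15, pandas 2.3.3 and statsmodels 0.14.6 were used.

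The members, lists, 1.5-fold threshold and most alternatives were chosen with earlier results of these data known. Of the members, values are given for all that passed 1.5-fold and for the other members of the same step. Of 8 other lists, up to 4 genes past 1.5-fold are named each, and ACSL4 was added after its values were seen, to complete a count.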

Additional observations from a re-analysis of the deposited data

How the results depend on the processing

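No paired analysis was possible because each group has 1 array, and no array could be left out for the same reason. Of 114 alternative values of the branch medians and counts, 86 stayed close to the values reported and 28 moved. No branch median changed direction, and a count has no direction that could change. Medians are called moved where they differ by more than the median noise SD of their members, and counts where they differ by more than 1.5 times. Each gene's median over its probe sets, including those held at 0 by the floor, was also taken. The fatty acid median for shRNA against control was then −0.33 and 1 member was at least 1.5-fold higher for ORF against shRNA. Without _x_at and _s_at probe sets, 16 members could be measured. The sterol median for shRNA against control was then −0.27. In that comparison 7 members were at least 1.5-fold lower, against 3.58% of all genes measured that way. For ORF against shRNA 3 members were higher. IDI1 then turned to 0.22 for shRNA against control. The second brightest probe set of each gene, an alternative chosen after seeing the data, could be had for 17 members. It gave sterol medians of −0.29 for ORF against control and −0.68 for shRNA against control, and a fatty acid median of −0.23 for the latter. At least 1.5-fold lower for shRNA against control were 8 members, against 3.38% of all genes with such a probe set above the floor. For ORF against shRNA 2 members were higher. With the second brightest probe set SREBF2 turned to 0.25 for shRNA against control and DGAT2 to −0.35 for ORF against control. For ORF against control, the count of higher genes was 0 with the floor at the 75th percentile, with the median over probe sets, without _x_at and _s_at, with the second brightest probe set and at a 2-fold threshold. The count of lower genes was 0 with that floor, without _x_at and _s_at, at 2-fold and among the 27 members above the floor on all arrays (also added after seeing the data), and 5 at a lower threshold of 0.32 on the log2 scale. The 1 higher gene of shRNA against control, DGAT2, was likewise lost (0) under the raised floor, the median over probe sets, the suffix filter, the second brightest probe set and 2-fold. At 2-fold, 0 members were lower for shRNA against control and 0 higher for ORF against shRNA, where 15 were higher at the lower threshold. The causes were not tested, except that fewer members were measured where stated. Signal over background limits TM7SF2, MVD and DGAT2 most.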

Other observations

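Of 17 measured genes of elongation and activation, 14 read below control on the shRNA array, against 51.1% of all measured genes. The median of the 17 was −0.10, and 3 were at least 1.5-fold higher (3.59% of all measured genes). These were SCD5, a second stearoyl-CoA desaturase, ACSL4, which activates arachidonate, and the elongase ELOVL3. SCD5 read 7.85 on the array labelled ORF and 8.02 on the array labelled shRNA, against 7.30 on control. ACSL4 read 9.81 and 9.93, against 9.33. ELOVL3 read 6.94 and 6.63, against 5.75, below the floor. Its ratio of 0.70 (noise SD 0.426) for the array labelled shRNA is thus set by the floor. SCD5 thus read higher on the array labelled shRNA, where SCD read lower. On the array labelled ORF, MLXIPL (the carbohydrate response factor ChREBP, 6.27 against 6.99) and ELOVL7 (8.30 against 8.99) were at least 1.5-fold lower, and ELOVL3 was higher. So 2 of 17 were lower (2.82% of all measured genes) and 1 higher (3.04%). The ratio of MLXIPL, −0.72, was under 2 noise SD (noise SD 0.419). Of 13 genes of citrate and NADPH supply, 0 passed 1.5-fold in any comparison, and of 19 genes of fatty acid oxidation 0 did. Over all measured genes, 2.64% to 3.59% passed it in each direction, so such counts in short lists say little. The medians for shRNA against control were −0.07 each.

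Of 20 measured genes of glycerolipid synthesis and lipid droplets, 2 were at least 1.5-fold lower on the array labelled shRNA than on control (3.30% of all measured genes) and 2 higher (3.59%). LIPE (hormone-sensitive lipase) read 6.67 on the array labelled ORF and 5.17, below the floor, on the array labelled shRNA, against 6.86 on control. FITM2, which buds droplets from the endoplasmic reticulum, read 8.83 and 8.48, against 9.15. AGPAT4, an acyltransferase, read 7.16 and 7.23, against 6.31, and LPIN2, a phosphatidate phosphatase, 8.82 and 9.23, against 8.54.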
